A study of Mus musculus with 44 samples.

Results

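Genes of the circadian clock were measured in the dorsal hippocampus of WT and Kdm5b mutant mice at 0, 1 and 3 h around a single session of fear conditioning. The 10 genes were chosen by name (Per1, Per2, Per3, Cry1, Cry2, Nr1d1, Nr1d2, Dbp, Arntl and Nfil3) from the 27179 genes in each count file, and all 10 were found and passed the filter on low counts in every comparison. The data come from 36 libraries, with 6 mice in each of 6 groups, 3 labelled male and 3 labelled female. Mutant mice were homozygous for the Kdm5b ΔARID allele, in which the coding region of the ARID domain is deleted and the JmjN domain is truncated, so that the protein lacks demethylase activity. WT mice were littermates. All mice were F2 animals of a cross between C57BL/6J and 129S2/Sv, aged 7 to 8 weeks, so the 2 genotypes both carry a mixed background. The 0 h mice were naive mice taken from the home cage, and the 1 h and 3 h mice were culled after exploring a chamber and receiving foot shocks. Nothing in the labels marks home cage mice that were handled or moved to the chamber without shock. The study's methods place behavioural work between morning and early evening, in mice kept under equal hours of light and dark, but the hour at which each mouse was culled is not given in the sources used here, so time since training and time of day cannot be told apart in any comparison between time points.

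The circadian clock is a feedback loop of transcription. BMAL1 (the product of Arntl) and CLOCK bind E-boxes and switch on the Per, Cry, Nr1d and Dbp genes, and the PER and CRY proteins then repress BMAL1 and CLOCK. The NR1D receptors repress Arntl and Nfil3 through RRE sites, while DBP activates and NFIL3 represses genes that carry D-boxes. Per1 and Per2 also answer to signals other than the clock, through binding sites for CREB (CRE) and for the glucocorticoid receptor. In the hippocampus these genes cycle over the day, and Per1 is in addition an activity-regulated gene.

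The sites by which members of the loop act on each other were looked for in the promoter windows of RefSeq (GRCm38.p6, the build mm10 that the authors aligned to), which run from 250 bases before to 50 bases after an annotated start. Windows of 300 bases were found for 9 of the 10 genes, 11 windows in all, and Per2 is named only. The letters searched on both strands were CACGTG (E-box), TTATGTAA or TTACGTAA (D-box), TGACGTCA (CRE), TGACGT (the CRE half-site, which lies within the CRE) and the RRE. Of all 32851 windows, 7.15% held the E-box, 1.06% a D-box, 1.79% the CRE, 7.51% the half-site and 0.384% the RRE. The E-box was in 2 of the 11 windows, the half-site in 1, the D-box in 1, the RRE in 1 and the CRE in 0. These 5 windows are shown because each holds a site of one arm of the loop or of the pathway from CREB, in capitals. The first Per1 window (chr11:69098699-69098998, plus strand) holds an E-box, and the second (chr11:69099902-69100201, plus strand) holds the half-site. The Cry1 window (chr10:85185005-85185304, minus strand) holds an E-box. The Per3 window (chr4:151044616-151044915, minus strand) holds 2 copies of TTATGTAA. The second Arntl window (chr7:113207261-113207560, plus strand) holds the RRE, 27 bases downstream of the start when the start base is counted as 1. A match is only a run of letters, and binding was not measured.

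Per1 first window: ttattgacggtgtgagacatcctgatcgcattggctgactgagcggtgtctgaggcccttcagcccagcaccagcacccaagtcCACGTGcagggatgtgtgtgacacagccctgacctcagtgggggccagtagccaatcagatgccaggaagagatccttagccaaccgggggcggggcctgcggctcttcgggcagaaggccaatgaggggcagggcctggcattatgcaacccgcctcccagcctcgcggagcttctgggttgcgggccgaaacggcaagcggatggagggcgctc
Per1 second window: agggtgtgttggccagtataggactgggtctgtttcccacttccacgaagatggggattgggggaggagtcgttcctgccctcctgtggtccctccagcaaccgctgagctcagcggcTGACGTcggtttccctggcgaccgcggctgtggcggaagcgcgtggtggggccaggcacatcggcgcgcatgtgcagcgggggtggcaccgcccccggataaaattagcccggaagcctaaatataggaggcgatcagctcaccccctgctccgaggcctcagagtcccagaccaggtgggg
Cry1: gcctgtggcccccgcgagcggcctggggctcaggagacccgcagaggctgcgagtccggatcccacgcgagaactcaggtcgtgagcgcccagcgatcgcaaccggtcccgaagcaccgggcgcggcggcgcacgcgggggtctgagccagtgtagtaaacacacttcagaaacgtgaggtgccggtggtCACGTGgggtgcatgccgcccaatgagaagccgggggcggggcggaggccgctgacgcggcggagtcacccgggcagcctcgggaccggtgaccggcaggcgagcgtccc
Per3: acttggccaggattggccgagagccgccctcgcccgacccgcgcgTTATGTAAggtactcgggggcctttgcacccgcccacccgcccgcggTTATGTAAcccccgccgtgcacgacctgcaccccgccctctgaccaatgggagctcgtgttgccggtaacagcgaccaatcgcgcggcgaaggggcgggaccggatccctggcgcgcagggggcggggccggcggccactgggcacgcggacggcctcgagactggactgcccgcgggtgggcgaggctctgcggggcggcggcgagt
Arntl second window: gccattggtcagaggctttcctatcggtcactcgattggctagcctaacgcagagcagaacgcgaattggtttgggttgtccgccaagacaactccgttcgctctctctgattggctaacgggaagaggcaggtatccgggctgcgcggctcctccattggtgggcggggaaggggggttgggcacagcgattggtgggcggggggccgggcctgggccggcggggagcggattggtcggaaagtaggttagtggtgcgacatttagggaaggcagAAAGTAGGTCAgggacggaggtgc

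Library totals ran from 40274435 to 107000233 counts, and no member fell below 323 counts in any library. Kdm5b was at 88.7 ± 4.14 CPM in WT (SD, n = 18) and 83.8 ± 4.83 CPM in mutants, with overlapping ranges, and since the allele removes only some exons its gene count does not check the genotype labels. Markers of neurons were at 2931 to 3879 CPM (counts relative to library size, scaled by TMM) in sum and those of CA1 at 366 to 718 CPM, as the labelled tissue has them. Markers of the choroid plexus varied most, from 42.7 to 7959 CPM in sum, and their part in the results below was not tested. Xist and Y-linked transcripts went against the labelled sex in 2 libraries. The library labelled WT male 1 at 1 h had 51186 counts on Xist and 0 on Y-linked genes, and the library labelled mutant female 2 at 3 h had 36 and 10239. Both stay under their labels. They also differ in labelled genotype and time, so an exchange of the 2 would change their group as well as their sex, and whether they were exchanged was not tested. The calls and correlations of the members are also given without them. The library labelled mutant female 2 at 3 h was also the highest of all 36 in the summed markers of oligodendrocytes (9723 CPM) and thalamus (138 CPM), and the lowest in those of neurons. Levels below are CPM per library, with mean ± SD over the libraries named. These are 6 for 1 genotype at 1 time, 12 for both genotypes at 1 time and 18 for 1 genotype over all times. Fold changes are log2 values from edgeR, followed by a standard error (SE). The SE was taken as the size of the log2 value over the square root of its F value in the quasi-likelihood F-test. A gene was called when its Benjamini-Hochberg adjusted p over all genes tested was below 0.05. In bulk tissue, fewer cells of a type and less RNA per cell cannot be told apart.

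Per kilobase of exon, Nr1d1 was by far the most abundant member (72.7 CPM per kb), followed by Cry2 (21.0), Nr1d2 (19.3), Per1 (17.9), Dbp (14.4), Per2 (7.69), Per3 (6.02), Nfil3 (5.17), Arntl (4.96) and Cry1 (3.78). Exon lengths are the union of all exons of a gene in GENCODE. They need not match the annotation used for counting, so the order of close values is approximate. Nr1d1 (chr11:98767932-98775377) overlaps Thra on 1075 bases, and Dbp (chr7:45705100-45710203) overlaps Sphk2 on 741. The mean level of Thra was 569 CPM and that of Sphk2 33.9 CPM. The strand setting of the counting is not given in the sources used here, so the levels of Nr1d1 and Dbp are uncertain to that extent. Per3 and Cry2 overlap Uts2 and D930015M05Rik, whose mean levels were 0.207 and 1.53 CPM. The member that varied most among libraries of one group was Dbp, with a within-group SD of 0.38 on the log2 scale, against a median of 0.17 over 18186 genes. Cry2 varied least, with 0.064.

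**Figure D1:**
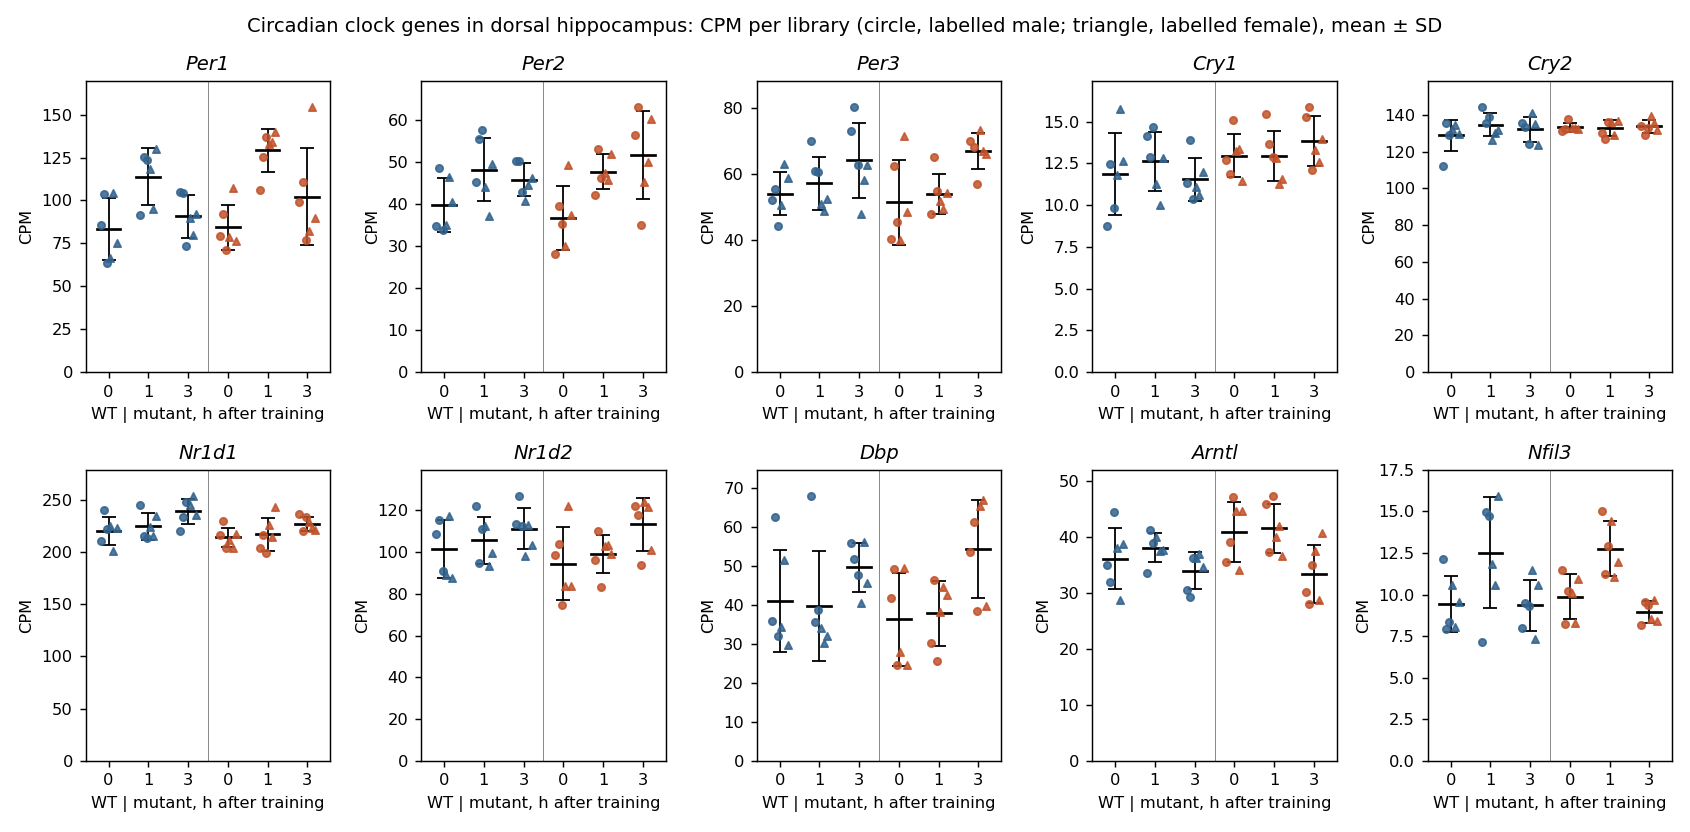
CPM of each of the 10 clock genes in the 36 libraries, by genotype (blue, WT; orange, mutant) and hours after training; circles are libraries labelled male, triangles libraries labelled female, and bars the mean ± SD of 6. The Per1 means at 1 h (114 and 129 CPM) lie above those of naive mice (83.2 and 84.2 CPM) in WT and mutants, Nfil3 is higher at 1 h than at 3 h, and Cry2 is nearly level.

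The first question was which clock genes differ 1 h after training, with both genotypes together (12 libraries against 12). Per1, a repressor of the loop, rose, from 83.7 ± 15.1 CPM at 0 h to 122 ± 16.1 CPM at 1 h. It was the only 1 of the 10 members called, where 0.927% of the 17907 genes tested were called higher and 1.05% were called in either direction. In WT the 6 naive libraries had a lowest Per1 level of 63.4, a median of 80.6 and a highest of 104 CPM, and the 6 libraries at 1 h had 91.4, 121 and 130 CPM. In mutants the corresponding levels were 71.4, 79.0 and 107 CPM at 0 h and 106, 134 and 140 CPM at 1 h. The ranges overlapped in both genotypes, with each of the 12 libraries at 1 h above the naive mean and 9 of them above every naive library. The log2 fold change was 0.53 (SE 0.091), which is 1.45-fold, with an adjusted p of 0.00626 (edgeR). Leaving out each of the 24 libraries in turn kept the call in all 24 fits, with log2 fold changes of 0.50 to 0.58. Those fits called 0.438% to 1.99% of all genes. In the same comparison the 6 markers of the choroid plexus were all lower at 1 h (median log2 difference -0.72, 0 with an unadjusted p below 0.05), and so were the 4 markers of the striatum (median -0.27, 2 with an unadjusted p below 0.05 and 0 called, and in mutants alone median -0.40 with 3 below 0.05). Their part in the result for Per1 was not tested.

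Per2, which has the same role in the loop as Per1, and Nfil3, the repressor of D-box genes, came next without passing the test. The Per2 level was 38.3 ± 6.92 CPM in naive mice and 48.0 ± 5.84 CPM at 1 h. Its log2 difference was 0.33 (SE 0.088), with an adjusted p of 0.0798 (edgeR). The Nfil3 level was 9.65 ± 1.46 CPM in naive mice and 12.6 ± 2.52 CPM at 1 h, a log2 difference of 0.39 (SE 0.11) with an adjusted p of 0.0821 (edgeR). The lowest Nfil3 level at 1 h, 7.14 CPM, was that of the library labelled WT male 1. Without that library alone Nfil3 was called in edgeR, with a log2 fold change of 0.44 and an adjusted p of 0.00620, where 1.99% of all genes were called. Both genes were called by DESeq2, at adjusted p of 0.0114 for Per2 and 0.0164 for Nfil3, where it called 1.84% of all genes. Over all alternatives and libraries left out the adjusted p ran from 0.00910 to 0.151 for Per2 and from 0.00620 to 0.156 for Nfil3. The other 7 members had log2 differences of 0.0092 (Dbp) to 0.070 (Per3), none with an unadjusted p below 0.05. The 3 members with an unadjusted p below 0.05 stand beside 12.8% of all genes tested. The median of the 10 log2 differences was 0.053, and that of all genes tested was -0.0088.

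Within each genotype the same comparison had 6 libraries on each side. In mutants the rise of Per1 was 0.61 (log2, SE 0.092) with an adjusted p of 0.0149 in edgeR, called among 54 of 17282 genes (0.312%). The call was lost in edgeR when all 36 libraries were fitted together (adjusted p 0.0568), and DESeq2 called Per2 (adjusted p 0.0348) and Nfil3 (adjusted p 0.0424) in mutants as well, where it called 1.62% of all genes. In WT its log2 difference was 0.45 (SE 0.15), with an unadjusted p of 0.0116 and an adjusted p of 0.922 (edgeR), so it was not called, and neither was any other of the 17319 genes tested (0%). Per2 and Nfil3 also had an unadjusted p below 0.05 in WT (0.0474 and 0.0478, edgeR). With Per1 these are 3 of the 10 members, where 928 of the 17319 genes tested had one. The difference between the genotypes in the 1 h response was tested directly, and for Per1 it was 0.16 (SE 0.18, adjusted p 0.999, edgeR). With an SE of that size the responses were shown neither to differ nor to be alike.

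The second question was how the members stood at 3 h. Against 0 h, 0 of the 10 members were called in edgeR, where 1.57% of the 17926 genes tested were called. Unadjusted p was below 0.05 for 6 members, against 15.1% of all genes tested. The 6 differences are given as values. With both genotypes together all 6 markers of the choroid plexus were higher at 3 h than at 0 h (median log2 difference 0.46, and 1.15 in mutants alone), with 0 at an unadjusted p below 0.05. The genotypes were not alike in this. In WT the median summed level of these markers was 2093 CPM at 0 h and 2195 CPM at 3 h, and in mutants it was 192 and 1473 CPM. Their part in this comparison was not tested. Dbp, an output factor, went from 38.6 ± 12.2 CPM in naive mice to 51.9 ± 9.75 CPM after 3 h, a log2 difference of 0.43 (SE 0.15, adjusted p 0.163, edgeR). Per2 differed by 0.35 (SE 0.10, adjusted p 0.0815), and Per3, whose role in the loop is less well defined, by 0.31 (SE 0.095, adjusted p 0.0925). Nr1d2 differed by 0.20 (adjusted p 0.197) and Nr1d1 by 0.10 (adjusted p 0.0745), both repressors of Arntl. Arntl, the activator, was lower at 3 h, at 33.7 ± 4.14 CPM against 38.5 ± 5.74 CPM, a log2 difference of -0.19 (SE 0.077, adjusted p 0.215, edgeR). The 4 members with an unadjusted p above 0.05 were Per1 (0.20), Cry1 (0.027), Cry2 (0.020) and Nfil3 (-0.077). The median over the 10 members was 0.15, and that over all genes was -0.0072. DESeq2 called 3 members in this comparison, Per2, Per3 and Nr1d1, where it called 3.21% of all genes, and edgeR called 0 without the libraries of discordant sex transcripts, where it called 2.93%. Fitting all 36 libraries together in edgeR called 1 member, Per2 (adjusted p 0.0375), and 2.39% of all genes. With a block for the replicate number edgeR called 4 members, Per2, Per3, Nr1d2 and Dbp (adjusted p 0.0126 to 0.0408), and 2.52% of all genes.

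From 1 h to 3 h Nfil3 fell, and it was the only 1 of the 10 members called, where 0.357% of the 17911 genes were called lower and 0.486% in either direction. In WT the lowest, median and highest Nfil3 levels were 7.14, 13.3 and 15.9 CPM at 1 h, and 7.33, 9.39 and 11.5 CPM at 3 h. In mutants they were 11.1, 12.4 and 15.0 CPM at 1 h, and 8.20, 8.96 and 9.69 CPM at 3 h. All 12 libraries at 3 h were below the mean at 1 h. The mutant groups did not overlap, as was the case for 0.418% of 18186 genes in that comparison, while the WT groups overlapped. The log2 change was -0.46 (SE 0.10), with an adjusted p of 0.0399 (edgeR). The 6 markers of the choroid plexus were all higher at 3 h than at 1 h, with a median log2 difference of 1.18, 1 of them at an unadjusted p below 0.05 and 0 called, and their part in this comparison was not tested. The Nfil3 call is close to the threshold, since of 24 fits with 1 library omitted only 6 kept it, with adjusted p of 0.00381 to 0.0880. Those 24 fits called 0.0888% to 1.28% of all genes. The Nfil3 call was lost without a filter on low counts (adjusted p 0.0504, edgeR). Without the 2 libraries of discordant sex transcripts Nfil3 fell by 0.54 on the log2 scale, with an adjusted p of 0.000568.

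Other members also stood at different levels at 3 h and 1 h without being called, 7 in all with an unadjusted p below 0.05 when Nfil3 is included, where 11.1% of all genes had one. Arntl had a log2 difference of -0.24 (SE 0.062, adjusted p 0.0776, edgeR), with 11 of 12 libraries at 3 h below the mean at 1 h. Per3 differed by 0.24 (SE 0.065, adjusted p 0.0950) and Dbp by 0.42 (SE 0.14, adjusted p 0.207). Per1 was lower at 3 h than at 1 h, with a log2 difference of -0.33 (SE 0.097, adjusted p 0.138). The highest Per1 level of the study, 154 CPM, was in the library labelled mutant female 2 at 3 h, while the other 11 libraries at 3 h had at most 111 CPM. Leaving out both libraries of discordant sex transcripts brought the calls from 1 to 5, with Per1 (-0.44, adjusted p 0.00230), Per3 (0.26, adjusted p 0.0396), Dbp (0.50, adjusted p 0.0197) and Arntl (-0.23, adjusted p 0.0411) joining Nfil3 (edgeR). The same fit called 2.09% of all genes, against 0.486% with every library. Over all alternatives and libraries left out the adjusted p ran from 0.00230 to 0.240 for Per1, 0.0180 to 0.275 for Per3, 0.0194 to 0.311 for Dbp and 0.0154 to 0.147 for Arntl. Leaving out the library labelled WT male 1 at 1 h alone gave 4 calls, of Nfil3, Per3, Dbp and Arntl, where 0.998% of all genes were called. That library had the highest Dbp level of all 36 (67.8 CPM), where the other 5 of its group had at most 38.8 CPM.

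**Figure D2:**
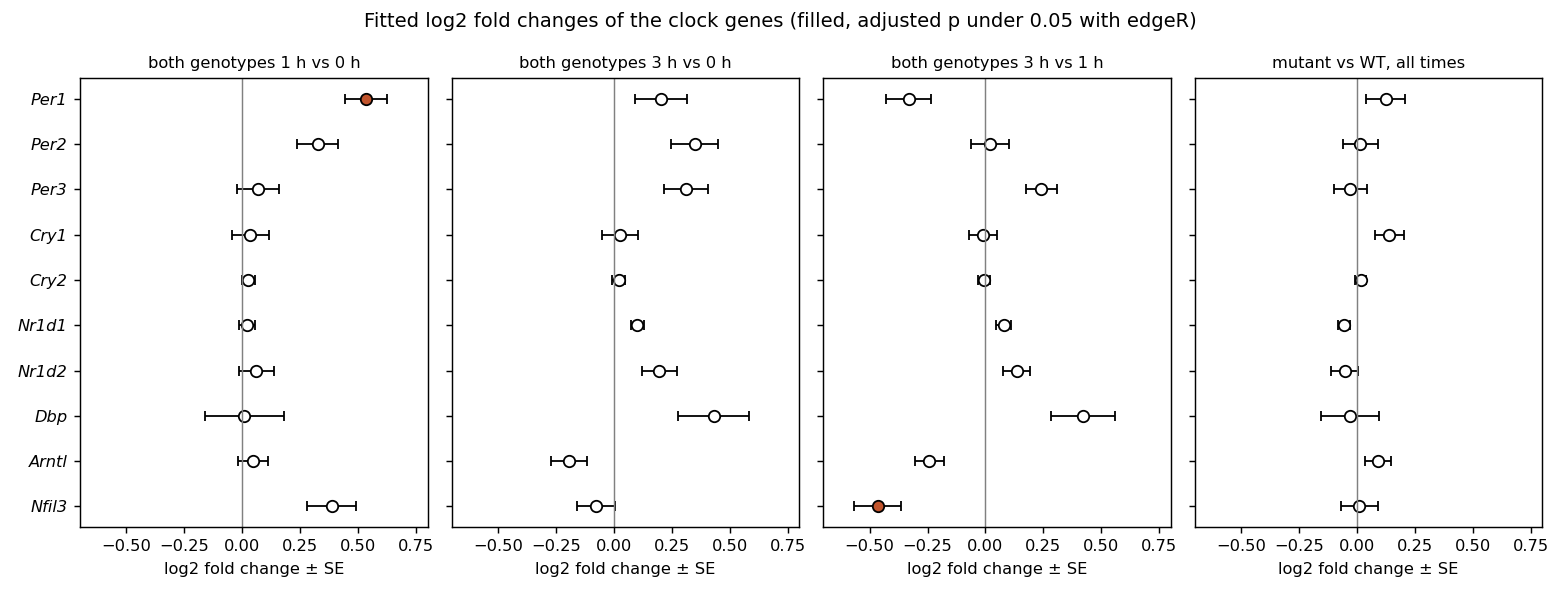
Fitted log2 fold change ± SE of each member in the comparisons of time points with both genotypes together (12 libraries against 12) and of mutant with WT over all times (18 against 18), from edgeR with genotype or time and sex as covariates; filled points were called. Per1 at 1 h (0.53) and Nfil3 from 1 h to 3 h (-0.46) are filled, and the genotype differences lie between -0.055 and 0.14.

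Cry1 and Cry2, the partners of the PER proteins, differed little over time with both genotypes together. Cry2 was at 131 ± 6.36, 134 ± 5.27 and 133 ± 5.30 CPM at 0, 1 and 3 h. Cry1 was at 12.4 ± 1.95, 12.8 ± 1.57 and 12.7 ± 1.79 CPM. Their log2 differences lay between -0.0098 and 0.035 in the pooled comparisons of time points, with SE of 0.026 to 0.028 for Cry2 and 0.062 to 0.081 for Cry1. The pooled values average the 2 genotypes. From 1 h to 3 h the Cry1 mean went from 12.6 to 11.6 CPM in WT (log2 difference -0.12, SE 0.089, adjusted p 0.821, edgeR). In mutants it went from 12.9 to 13.8 CPM. Changes of Cry2 as large as that of Per1 at 1 h were thus many SE away, while smaller changes of Cry1 remain within its error.

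The third question was whether the members depended on genotype. Over all times (18 mutant against 18 WT libraries) 0 of 10 members were called in edgeR, where 1.3% of 18186 genes were called. All 6 markers of the choroid plexus were lower in mutants with an unadjusted p below 0.05 and 0 of them called (median log2 difference -1.63). Of 4 markers of dentate granule cells 2 were higher with an unadjusted p below 0.05, of which C1ql2 was called (0.74, SE 0.15, adjusted p 0.00898, edgeR), with a median of 0.012 over the 4. Of the 4 markers each of astrocytes, striatum and thalamus, 2 were higher with an unadjusted p below 0.05 and 0 called (medians 0.084, 0.16 and 0.18). The part of these markers in the genotype comparison was not tested. Of the 10 members, 2 had an unadjusted p below 0.05, against 15.2% of all genes. Cry1 was higher in mutants, at 13.3 ± 1.42 against 12.02 ± 1.84 CPM, a log2 difference of 0.14 (SE 0.063, adjusted p 0.273). Nr1d1 was lower, at 220 ± 12.1 against 228 ± 14.6 CPM, a log2 difference of -0.055 (SE 0.026, adjusted p 0.299, edgeR). The other 8 members lay between -0.054 and 0.12. DESeq2 also called 0 members in this comparison, where it called 2.38% of all genes. Within single time points (6 against 6) 0 members were called at 0, 1 or 3 h in edgeR or DESeq2, and the share of genes called in edgeR was 0, 0 and 0.0115%, and in DESeq2 it was 0.071%, 0.436% and 0.222%. Unadjusted p was below 0.05 for 6.15%, 8.61% and 6.36% of genes. The one member with an unadjusted p below 0.05 there was Cry1 at 3 h, at 13.8 ± 1.49 CPM in mutants and 11.6 ± 1.29 CPM in WT. Its log2 difference was 0.26 (SE 0.087, unadjusted p 0.00962, adjusted p 0.682, edgeR), and all 6 mutant libraries were above the WT mean. Without the library labelled mutant female 2 it was 0.28 (adjusted p 0.501, edgeR). Per2 lies on chromosome 1 (chr1:91415977-91459351), 43.1 Mb from Kdm5b, so its alleles are partly linked to the genotype in these F2 mice, and its log2 difference over all times was 0.014 (SE 0.076).

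The responses to training were also compared between genotypes by the interaction term in the 24 libraries of 2 time points. For the 1 h response the 10 differences (mutant minus WT) lay between -0.088 (Cry1) and 0.16 (Per1), and for the 3 h response between -0.20 (Arntl) and 0.31 (Dbp). In edgeR and in DESeq2 0 of the 10 were called in either, as were 0% of all genes in edgeR. DESeq2 called 0.00866% of all genes for the 1 h response and 0% for the 3 h response. In edgeR 0 of the 10 had an unadjusted p below 0.05, where 3.78% and 1.52% of genes did. In mutants alone, 0 members were called by edgeR from 0 h to 3 h or from 1 h to 3 h, as were 0% of the genes tested, while 6 members had an unadjusted p below 0.05 in each (8.57% and 8.04% of genes). In WT alone 0 members and 0% of genes were called, and 1 and 4 members had an unadjusted p below 0.05 (8.23% and 7.41% of genes). DESeq2 called 2 members, Nfil3 and Per3, in mutants from 1 h to 3 h and 0 in mutants from 0 h to 3 h and in WT in both comparisons with 3 h, where it called 0.362%, 0.553%, 0.333% (WT from 0 h) and 0.275% (WT from 1 h) of all genes. For the 3 h response the SE of the difference was 0.30 for Dbp, 0.20 for Per2 and 0.15 for Arntl, so the genotypes were not shown to respond differently or alike.

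Libraries of one group differed from each other in a coordinated way. The level of Dbp in naive WT mice ran from 29.6 to 62.4 CPM, with a median of 35.0, while Arntl ran from 28.8 to 44.5 CPM, with a median of 36.5. In naive mutants Dbp ran from 24.6 to 49.4 CPM and Arntl from 34.1 to 47.1 CPM. The libraries labelled WT male 2 and WT female 2 at 0 h had the highest Dbp levels of their group (62.4 and 51.4 CPM) and its lowest Arntl levels (32.0 and 28.8 CPM). In naive mutants male 2 and female 2 also had the highest Dbp levels (49.1 and 49.4 CPM), with Arntl at 39.1 and 34.1 CPM. The lowest Dbp levels were those of male 3 and female 3 in both naive groups, at 32.0 and 29.6 CPM in WT and 24.6 CPM in each of the mutant libraries. Whether equal numbers mark mice handled together is not given in the sources used here. Over all genes they were not taken to pair the mice, by a rule that cannot decide this. Within libraries the ratio of Dbp to Arntl thus ran from 0.718 to 1.95 in naive WT mice and from 0.523 to 1.45 in naive mutants, though all were labelled with the same time. At 3 h it ran from 1.11 to 1.83 in WT mice and from 0.978 to 2.33 in mutants (to 2.18 without the library labelled mutant female 2), ranges that overlap those at 0 h.

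**Figure D3:**
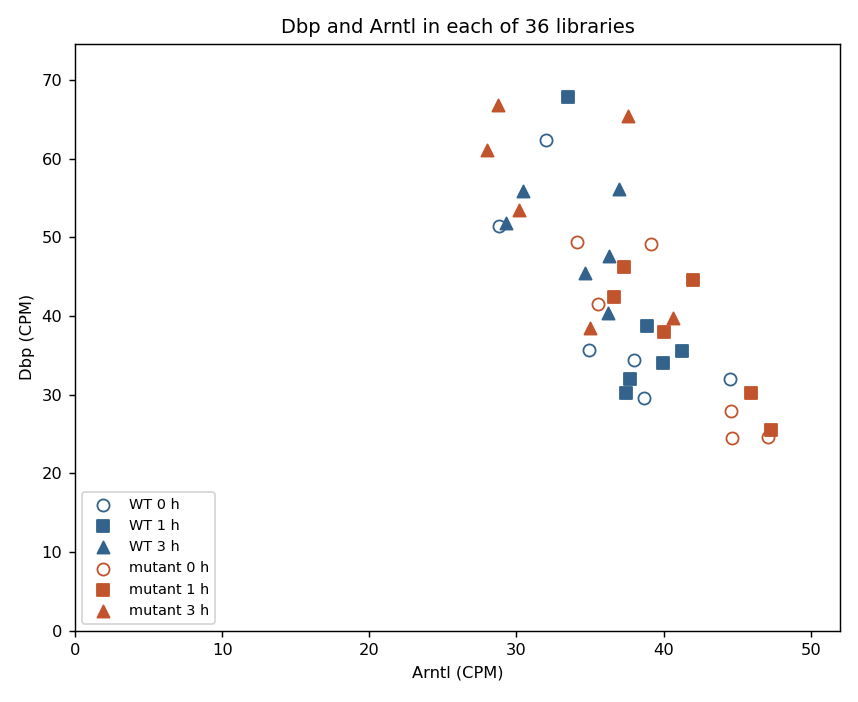
Dbp against Arntl, both in CPM, in each of the 36 libraries; colour gives the genotype and the symbol the hours after training, with open circles for naive mice. Libraries with more Dbp tend to have less Arntl, and naive libraries run from 24.6 to 62.4 CPM of Dbp, with 3 trained libraries above them (65.4 to 67.8 CPM).

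These relations were measured over the 36 libraries as deviations of log2 CPM from the mean of each group, so that neither genotype nor time since training enters. For Dbp and Arntl Pearson's r was -0.72 and Spearman's rho -0.74 (n = 36, both permutation p 1e-05, the smallest that 100000 permutations within groups can give, and 0.00015 after adjustment over 45 pairs). It was -0.71 without the 2 libraries farthest from the median of Dbp, and negative in each of the 6 groups (-0.91 to -0.42). Dbp and Nr1d2, both targets of BMAL1 and CLOCK, moved together, with r of 0.87, rho of 0.88 and an adjusted permutation p of 0.00015, positive in 6 of 6 groups. Nr1d2 and Arntl had r of -0.73 and rho of -0.71 (adjusted permutation p 0.00022). Per2 and Per3 had r of 0.71 and rho of 0.72, Per3 and Dbp r of 0.58 and rho of 0.57, and Per1 and Per2 r of 0.63 and rho of 0.66. Per1 and Arntl had r of -0.63 and rho of -0.62, with the opposite sign in 1 of the 6 groups (r 0.75). Nfil3 ran against Dbp, with r of -0.56 and rho of -0.46 (adjusted permutation p 0.00620), though in 1 of the 6 groups the sign was opposite. Without the 2 libraries farthest from the median of Dbp that r was -0.41.

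Of the 45 pairs of members, 18 had an adjusted permutation p below 0.05 by Pearson's r, of which 11 were positive and 7 negative. As a description, 46.7% of the pairs of members had an r of at least 0.40 in size (the smallest of the 18), as did 6.73% of all pairs of the 18186 genes. The positive pairs were all among Per1, Per2, Per3, Cry1, Nr1d2 and Dbp, and each negative pair included Arntl or Nfil3. By Spearman's rho 3 of the 18 had an adjusted permutation p above 0.05, which were Per2 with Nr1d2 (0.0756), Per3 with Nfil3 (0.0756) and Nr1d2 with Nfil3 (0.0552). Nr1d1 and Cry2 were in none of the 18 pairs, and they are the members with the smallest spread within groups. Values from one library share its dissection, depth and scaling, and an unequal makeup of the tissue would move several genes at once. The share of these in the correlations was not tested. Leaving out each group in turn, or both libraries of discordant sex transcripts, changed the sign of 0 of the 18.

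**Figure D4:**
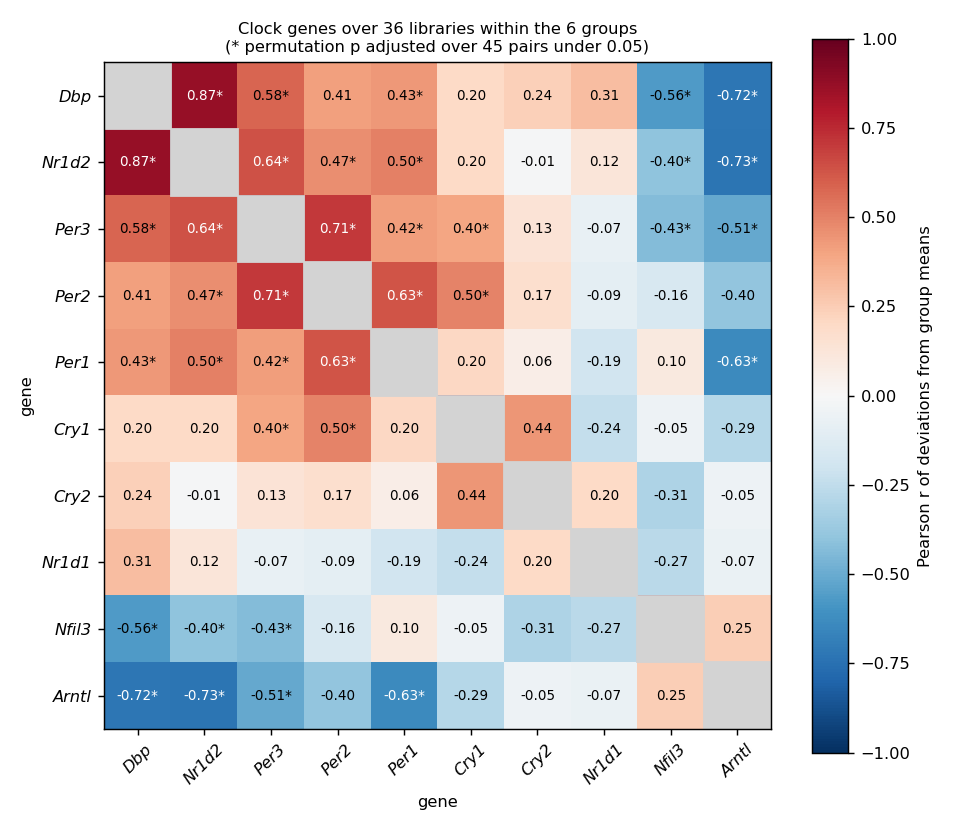
Pearson r of each pair of members over 36 libraries, as deviations of log2 CPM from the 6 group means; red is positive, blue negative, and an asterisk marks an adjusted permutation p below 0.05 over 45 pairs. Dbp, Nr1d2, Per3, Per2 and Per1 form a positive block (0.41 to 0.87), and Arntl is negative with each of them.

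The genes outside the 10 whose log2 CPM followed the members most closely over the 36 libraries were given by Pearson's r without removing the group means, as a description. For Dbp they were Ciart (0.87), a repressor of the clock, Bhlhe41 (0.85), a repressor at E-boxes, and Garem2 (0.75). The same 3 genes led for Nr1d2 (0.83, 0.75 and 0.76). Ciart was also among those of Per3 (0.79), with Castor1 (0.81) and Inpp5j (0.79). For Per1 they were Errfi1 (0.88), a gene induced by glucocorticoids, Kdm6b (0.85) and Slc25a25 (0.85). For Nfil3 they were Arl5b (0.76), Arc (0.75), an activity-regulated gene of synapses, and Med20 (0.75). For Arntl they were Tspan13 (0.75), Gm266 (0.72) and Sash1 (0.71), and for Per2 2900026A02Rik (0.83), Gpt2 (0.82) and Chka (0.80). Cry1, Cry2 and Nr1d1 had no gene above 0.68. Without both libraries of discordant sex transcripts these values moved by at most 0.064, and 22 of the 30 nearest genes, 3 for each member, stayed among the 3 nearest. Arl5b and Med20 did not for Nfil3, Kdm6b for Per1, Bhlhe41 for Nr1d2 and Tspan13 for Arntl.

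Among 22 other genes of the clock and its outputs, 1 was called higher at 1 h than at 0 h (0.927% of all genes), 3 higher and 1 lower at 3 h than at 0 h (1.57% of all genes in either direction), and 1 higher and 1 lower at 3 h than at 1 h (0.486% in either direction). Bhlhe40, a repressor at E-boxes, rose by 0.24 at 1 h (SE 0.060, adjusted p 0.0453, edgeR), in 11 of 12 libraries against the naive mean. At 3 h Bhlhe41, its paralog, had risen by 0.27 (SE 0.067, adjusted p 0.0426). Noct, a clock-controlled phosphatase, rose by 0.14 (adjusted p 0.0203), and Wee1, a cell cycle kinase under clock control, by 0.20 (adjusted p 0.0446). Usp2, a clock-controlled deubiquitinase, rose by 0.21 from 1 h to 3 h (SE 0.045, adjusted p 0.0399). Rorb, an activator at RREs, fell by 0.31 from 0 h to 3 h (SE 0.067, adjusted p 0.0203) and by 0.39 from 1 h to 3 h (SE 0.053, adjusted p 0.00116). Rorb is also a marker of thalamus, and the 4 thalamic markers together had medians of 60.6, 68.1 and 56.6 CPM at 0, 1 and 3 h in WT and 79.0, 63.5 and 60.1 CPM in mutants. The part of thalamic tissue in the fall of Rorb was not tested. The medians of the 22 log2 differences were 0.047, 0.043 and 0.00049 in the comparisons of 1 h with 0 h, 3 h with 0 h and 3 h with 1 h, and 0 of the 22 were called between genotypes over all times in edgeR, where 5 had an unadjusted p below 0.05, against 15.2% of all genes. Without both libraries of discordant sex transcripts the calls were the same genes, with Bhlhe41 added from 1 h to 3 h.

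Per1 also belongs to gene programs outside the clock, so 3 lists of such genes were set beside it. Of 12 activity-regulated genes, 8 were called higher at 1 h and 1 at 3 h against 0 h, where 0.927% of all genes were called higher at 1 h and 1.57% in either direction at 3 h, with median log2 differences of 0.74 and 0.0025. For Fos, an activity-regulated transcription factor, naive WT mice had 11.1 ± 5.56 CPM and WT mice at 1 h had 25.5 ± 8.49 CPM, while the mutant means were 11.6 ± 6.22 and 28.8 ± 3.79 CPM. Of 15 genes induced by glucocorticoids, 2 were called higher at 1 h (Errfi1 and Pdk4) and 1 at 3 h (Fkbp5), with medians of 0.38 and 0.45. Fkbp5, a chaperone partner of the glucocorticoid receptor, was at 67.0 ± 15.0, 73.6 ± 11.1 and 103 ± 18.8 CPM at 0, 1 and 3 h in WT. Of 8 genes that respond to temperature, 1 was called higher at 1 h (Dnajb1) and 0 at 3 h in edgeR, with medians of 0.11 and 0.035. Without both libraries of discordant sex transcripts 8, 3 and 2 genes of the lists were called higher at 1 h and 1, 3 and 0 at 3 h. Those fits called 1.99% and 2.93% of all genes in either direction. The part of these programs in the rise of Per1 was not tested.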

How the data were processed

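RNA from dorsal hippocampus of 36 mice was sequenced from poly-A libraries with paired-end reads. The authors aligned the reads to mm10 with STAR 2.7.8a and counted them per gene with featureCounts 2.0.1, per the labels, and what they deposited are raw counts for each gene, without normalization. The gene annotation and strand setting are not given in the sources used here. Of 27179 genes, 25275 were named from RefSeq, and the 1904 without a name hold 1.284% of the counts. The 8 libraries of the first cohort were not analysed here.

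Comparisons were fitted with edgeR 4.0.16 (quasi-likelihood F-test, filterByExpr with a minimum count of 10, TMM, R 4.3.3), with sex as labelled and, where pooled, genotype or time as covariates. Correlations used log2 CPM with a prior count of 2. The 10 genes and all lists were chosen with earlier results of these data known. Every member was described, with single-library levels for those called in a pooled comparison and for Dbp and Arntl, and the other genes named are the clock genes called in those comparisons and the 3 nearest in correlation. Dbp and Arntl were singled out after their values were seen. Alternatives were RLE factors, DESeq2 1.42.0 with and without sex, no filter, at least 10 counts in every library, no sex covariate, 1 fit of all 36 libraries, a block for the replicate number, and fits that omit 1 library at a time. A fit without the 2 libraries of discordant sex transcripts was added after seeing the data. On simulated counts for both genotypes at 1 h against 0 h (17907 genes), edgeR recovered 22 of 50 genes changed by 0.25 on the log2 scale, 36 of 50 at 0.5 and 45 of 50 at 1, with 5 unchanged genes called. For WT at 1 h against 0 h (17319 genes, 6 libraries against 6) it recovered 5, 28 and 37 of 50. Each gene was drawn on its own from fitted means and dispersions, with 200 genes changed. Differences in dissection that move many genes at once were not simulated. The measured WT comparison called 0 genes, so the recovered shares need not hold for the measured libraries. Python 3.11.15, NumPy 2.4.6, SciPy 1.17.1 and Matplotlib 3.10.9 were used.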

Additional observations from a re-analysis of the deposited data

Results flagged for a closer look

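In 3 of the 60 combinations of a member and a group, 1 library stood apart from the other 5 by Dixon's criterion for 6 values (0.625), which chance alone passes in about 1 of 20 groups. Dbp in the library labelled WT male 1 at 1 h was at 67.8 CPM, with the next highest of its group at 38.8 CPM. This is one of the 2 libraries whose sex transcripts differ from the label. Cry2 in the library labelled WT male 1 at 0 h was at 112 CPM, with the next lowest at 129 CPM. Cry2 in the library labelled mutant male 3 at 0 h was at 138 CPM, with the next highest at 133 CPM.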

How the results depend on the processing

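Log2 fold changes of members with an unadjusted p below 0.05 (42 in all) kept their sign in all 1118 values under the alternatives, and 1043 of these also kept their side of the threshold, while 20 lost a call and 55 gained one. The 42 were chosen by a low p, and the alternatives reuse all or most of the same libraries, so the kept signs give little further support. The number of members called depended more on the setting. For 1 h against 0 h in both genotypes, 1 call became 3 with DESeq2 with or without sex, 2 with the replicate block, 2 without the 2 libraries of discordant sex transcripts and 2 with all 36 libraries in 1 fit, and it was 1 to 2 when single libraries were left out. For 3 h against 0 h, 0 became 3 with either DESeq2 fit, 4 with the block (Per2, Per3, Nr1d2 and Dbp), 1 with all 36 libraries and 0 to 2 without single libraries. For 3 h against 1 h, 1 became 4 or 3 with DESeq2 with or without sex, 0 without a filter, 5 without the 2 discordant libraries and 0 to 4 without single libraries. In mutants at 1 h against 0 h, 1 became 3 with either DESeq2 fit, 0 with all 36 libraries and 1 to 2 without single libraries. In mutants at 3 h against 1 h, 0 became 2 with either DESeq2 fit, 1 without the discordant library and 0 to 1 without single libraries. The other 10 comparisons, genotype differences and all WT comparisons among them, had 0 calls throughout. The causes were not tested. Same-numbered libraries of 2 groups had correlations of deviations of -0.19 to 0.25 (median 0.016), with 0 of 15 pairs of groups above 0.1 in every pair, so the numbers were not taken to pair the mice. Since 1 low pair is enough to fail this rule, it cannot decide whether equal numbers mark mice handled together. Of 180 matches looked for between groups and within a sex, 77 fell on the same number, where 60 would if the numbers carried nothing. The share of all genes called moved with the setting too. At 1 h against 0 h it was 1.05% in the main edgeR analysis, 1.84% and 1.88% in DESeq2 with and without sex, 1.21% with the block, 1.99% without the discordant libraries and 1.14% with all 36. At 3 h against 0 h it was 1.57%, and 3.21%, 3.11%, 2.52%, 2.93% and 2.39% in the same order. At 3 h against 1 h it was 0.486%, with 1.27% and 1.14% in DESeq2, 0.182% without a filter and 2.09% without the discordant libraries. With single libraries left out, both genotypes together, the share ran from 0.438% to 1.99% at 1 h against 0 h. It ran from 0.787% to 3.03% at 3 h against 0 h and from 0.0888% to 1.28% at 3 h against 1 h. In mutants it was 0.312% at 1 h against 0 h (DESeq2 1.62% and 1.79%, all 36 libraries 0.28%) and 0% at 3 h against 1 h (DESeq2 0.362% and 0.313%, without the discordant library 0.104%). Over all genes, DESeq2 with sex called 424, 741 and 294 genes in the comparisons of 1 h with 0 h, 3 h with 0 h and 3 h with 1 h, against 188, 281 and 87 in edgeR. Each member had at least 323 counts in every library.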
